A study of Homo sapiens with 8 samples.

Results

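The interferon response genes described here are 47 genes taken from a list of symbols, out of the 64252 genes counted by RNA sequencing in the cell lines 6T-CEM and J.gamma1. They comprise 3 receptor chains, the signal transducer STAT2 and 43 effectors, and every symbol was matched to an Ensembl gene identifier in both count tables. Both lines are human T-cell acute lymphoblastic leukemia (T-ALL) lines, 6T-CEM a derivative of CCRF-CEM and J.gamma1 a derivative of Jurkat. The study asked what the loss of LDB1, an adaptor that joins LIM-domain proteins and transcription factors into chromatin complexes, does to such cells. Each line was sequenced with a control hairpin (sh-NC) and with a hairpin against LDB1 (sh-LDB1), in 4 groups of 2 libraries. Per the study's methods the hairpins were delivered in lentiviral vectors and infected cells were selected with puromycin, so the control libraries share the infection and the drug with the knockdown libraries. An uninfected group was not analysed here. Which of the study's LDB1 hairpins the sequenced cells carried is not given in the sources used here. Nothing in the labels says that replicates came from separate cultures, so p-values measure the spread between these libraries, which may be technical.

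Type I interferons bind the receptor formed by IFNAR1 and IFNAR2, and interferon gamma binds the receptor that contains IFNGR1. Receptor-bound JAK kinases phosphorylate STAT proteins, among them STAT2, which act with IRF9 at the interferon-stimulated response element in the promoters of antiviral genes. STAT dimers bind a separate, palindromic element. The products of these genes sense double-stranded RNA, block viral translation and entry, or modify proteins with the ubiquitin-like protein ISG15, and many of them hold a low basal level in cells that receive no interferon.

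Promoter windows of 9 members are shown here because the same short element recurs in genes that rose and in genes that fell. Promoters came from RefSeq on GRCh38.p14 and span 250 bases before to 50 bases after the transcription start, 300 bases in all. A promoter entry was found for 38 members, and the 9 others were IFNAR2, OAS2, OASL, USP18, IFIT2, IFITM2, MX2, TRIM22 and GBP2. The interferon-stimulated response element was searched on both strands as GAAANNGAAA, which reads TTTCNNTTTC on the other strand, and 25 of the 38 members (65.8%) held it, against 4.38% of all 27305 gene symbols with an entry and 3.57% of the 35116 single promoters. The STAT element was searched as TTCNNNGAA, which is its own reverse complement, and 10 of the 38 members (26.3%) held it, against 9.38% of all symbols and 7.66% of single promoters. Both motifs occurred in 8 members, and in 5 of these (BST2, EPSTI1, IFI27, IFITM1 and MX1) a match to the one overlapped a match to the other. Each sequence is printed 5′ to 3′ on the strand of its gene, with matches to the interferon-stimulated response element inside the window in capitals. Further matches lay outside the windows printed, starting at base −51 from the transcription start in IFIT3 and −74 in HERC5. Another promoter entry of IFIT3, with matches at −156 and −122, is not printed. The first 5 belong to genes that rose past a log2 difference of 1 in at least 1 line, and the next 3 to genes that fell in both lines. The other genes that fell in both lines, IFNGR1, ADAR, UBE2L6 and CMPK2, had a promoter entry and no match. All 7 members that rose in both lines held a match, so the windows printed do not show how common it is in either set.
IFIT3, chr10:89332417-89332462, plus strand: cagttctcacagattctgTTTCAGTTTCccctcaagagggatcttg
IFIT1, chr10:89392489-89392547, plus strand: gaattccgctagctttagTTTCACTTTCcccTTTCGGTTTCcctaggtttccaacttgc
IFI44, chr1:78649753-78649798, plus strand: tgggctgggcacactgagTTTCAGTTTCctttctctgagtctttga
IFI27, chr14:94110610-94110668, plus strand: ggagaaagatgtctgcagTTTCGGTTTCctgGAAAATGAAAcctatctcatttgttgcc
BST2, chr19:17405727-17405778, minus strand: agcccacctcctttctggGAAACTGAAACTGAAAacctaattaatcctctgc
EPSTI1, chr13:42992264-42992309, minus strand: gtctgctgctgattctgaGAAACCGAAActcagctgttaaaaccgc
RSAD2, chr2:6877614-6877659, plus strand: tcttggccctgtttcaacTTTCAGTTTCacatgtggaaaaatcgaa
HERC5, chr4:88456976-88457027, plus strand: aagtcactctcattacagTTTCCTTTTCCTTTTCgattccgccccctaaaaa
The promoter of PARP9 is printed as well because the same 46 bases, read on the other strand, lie in the promoter of its head-to-head neighbour DTX3L.
PARP9, chr3:122564314-122564359, minus strand: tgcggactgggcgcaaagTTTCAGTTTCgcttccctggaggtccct
A match is a description of the letters and not of a bound site, and a missing match says only that these letters were not in the window.

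Libraries held 26160492 to 30604977 counts, and the members held 0.156% to 0.178% of it. Levels are given as CPM, counts scaled by library size with edgeR's TMM factors over the 8 libraries. LDB1 itself fell from 107 and 111 CPM to 37.0 and 35.0 CPM in 6T-CEM (log2 difference −1.60 ± 0.07 SE, adjusted p = 1.02e-09). In J.gamma1 it fell from 60.1 and 58.8 CPM to 33.2 and 30.7 CPM (−0.89 ± 0.08, adjusted p = 3.68e-06 in edgeR's quasi-likelihood test). Of 9 T-cell markers, CD3D, CD3E, LCK and PTPRC were abundant in both lines, and CD2 was near 0 in 6T-CEM at 0.396 CPM in the controls. The summed level of these markers was 1780 to 1870 CPM in 6T-CEM controls and 2330 to 2340 CPM with sh-LDB1, and 2310 CPM in J.gamma1 controls and 3150 CPM with sh-LDB1. Single markers went both ways, with CD5 lower in both lines with sh-LDB1, CD3D, LCK and CD2 lower in J.gamma1, and CD3E (462 and 886 CPM) and PTPRC (403 and 799 CPM) higher there. Of 4 plasmacytoid dendritic cell markers, LILRA4 and CLEC4C were at 0 in every group, IL3RA was at 0 to 0.139 CPM, and TCF4 was at 41.2 and 39.3 CPM in 6T-CEM and 15.6 and 17.5 CPM in J.gamma1 (sh-NC and sh-LDB1). The erythroid marker HBB was at 0 in every group, and 5 myeloid markers summed to between 0.629 and 1.9 CPM. Of the B-cell markers, MS4A1 was at or near 0, and CD79A had means of 23.3 CPM in the controls and 38.8 CPM with sh-LDB1 in 6T-CEM, and of 66 and 75.5 CPM in J.gamma1. The mitochondrial share was 2.98% to 4.59%. The part of the marker levels in the results was not tested.

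With sh-LDB1, members were called in both directions in each line. The threshold for a call was an adjusted p of 0.05, with Benjamini-Hochberg adjustment over all genes tested. In 6T-CEM, 46 members had enough counts to be tested, and 10 of them rose (21.7%) and 12 fell (26.1%), where 15.1% of all 16059 genes tested rose and 16.2% fell. In J.gamma1, 45 members were tested, and 21 rose (46.7%) and 10 fell (22.2%), where 25.0% of all 17215 genes tested rose and 26.5% fell. The median log2 difference of the members was 0.03 for 6T-CEM and 0.29 for J.gamma1, with medians over all genes tested of 0.0027 and −0.000247. The members' summed level was lower with sh-LDB1, going from 1707 and 1725 CPM to 1624 and 1625 CPM in 6T-CEM and from 1709 and 1718 CPM to 1656 and 1631 CPM in J.gamma1, and ADAR, which had the most counts of any member, fell in both lines. Fewer members rose in J.gamma1 whichever of its libraries was left out, and counts in 6T-CEM moved with single libraries as well. Without sh-LDB1 replicate 2 the rising members numbered 6, and without sh-NC replicate 1 the falling members numbered 7.

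**Figure D1:**
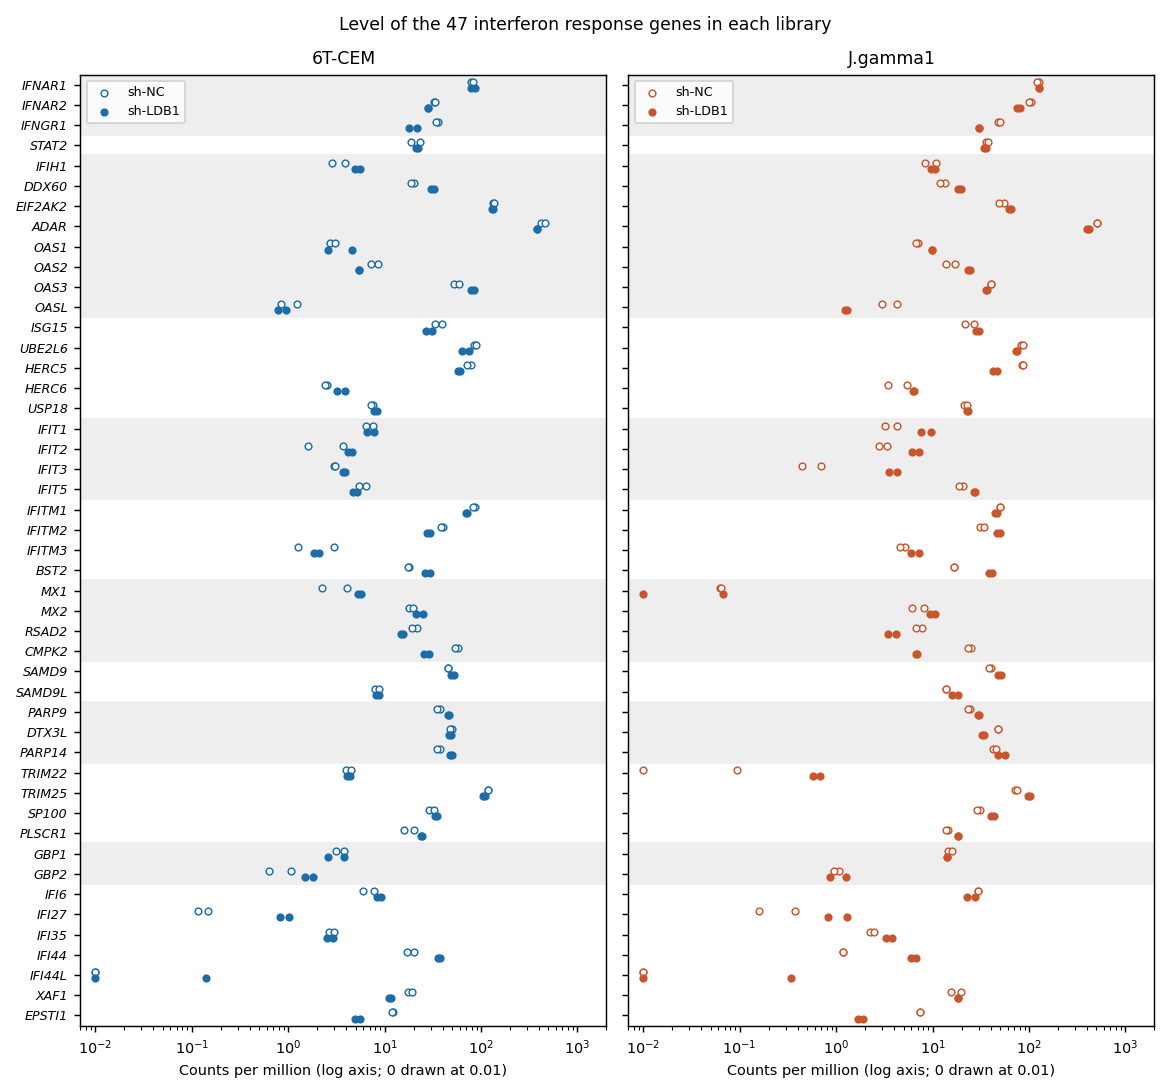
Level of each of the 47 members in every library, in CPM on a log axis (0 is drawn at 0.01), with open points for sh-NC and filled points for sh-LDB1. The genes are grouped by role in grey and white bands, and IFI27, IFI44 and BST2 sit higher in both sh-LDB1 libraries of both lines, while CMPK2 and EPSTI1 sit lower.

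Past a log2 difference of 1 as well, 1 member rose and 2 fell in 6T-CEM, where 2.74% of all genes rose and 2.39% fell. In J.gamma1 7 rose and 3 fell, where 6.67% of all genes rose and 7.19% fell. Across the lines, 7 members rose in both (DDX60, BST2, PARP9, PARP14, PLSCR1, IFI27 and IFI44) and 7 fell in both (IFNGR1, ADAR, UBE2L6, HERC5, RSAD2, CMPK2 and EPSTI1). With DESeq2 the calls in both lines held for DDX60, BST2 and IFI44 among the first and for IFNGR1, ADAR, HERC5, CMPK2 and EPSTI1 among the second, since PARP9, PARP14, PLSCR1, IFI27 and UBE2L6 lost theirs in J.gamma1 and RSAD2 in 6T-CEM. Only OAS2 and IFITM2 were called in opposite directions, lower in 6T-CEM and higher in J.gamma1. A further 12 rose in J.gamma1 without a call in 6T-CEM, and 9 had no call in either line. The shares of all genes with the same pairs of calls were not computed, so the agreement between the lines has no background here. The libraries of the 2 groups did not overlap for 35 members in 6T-CEM, 19 of them higher and 16 lower with sh-LDB1. In J.gamma1 they did not overlap for 40 members, 26 higher and 14 lower. The share of all genes without overlap was not computed, so these counts do not set the members apart from other genes.

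**Figure D2:**
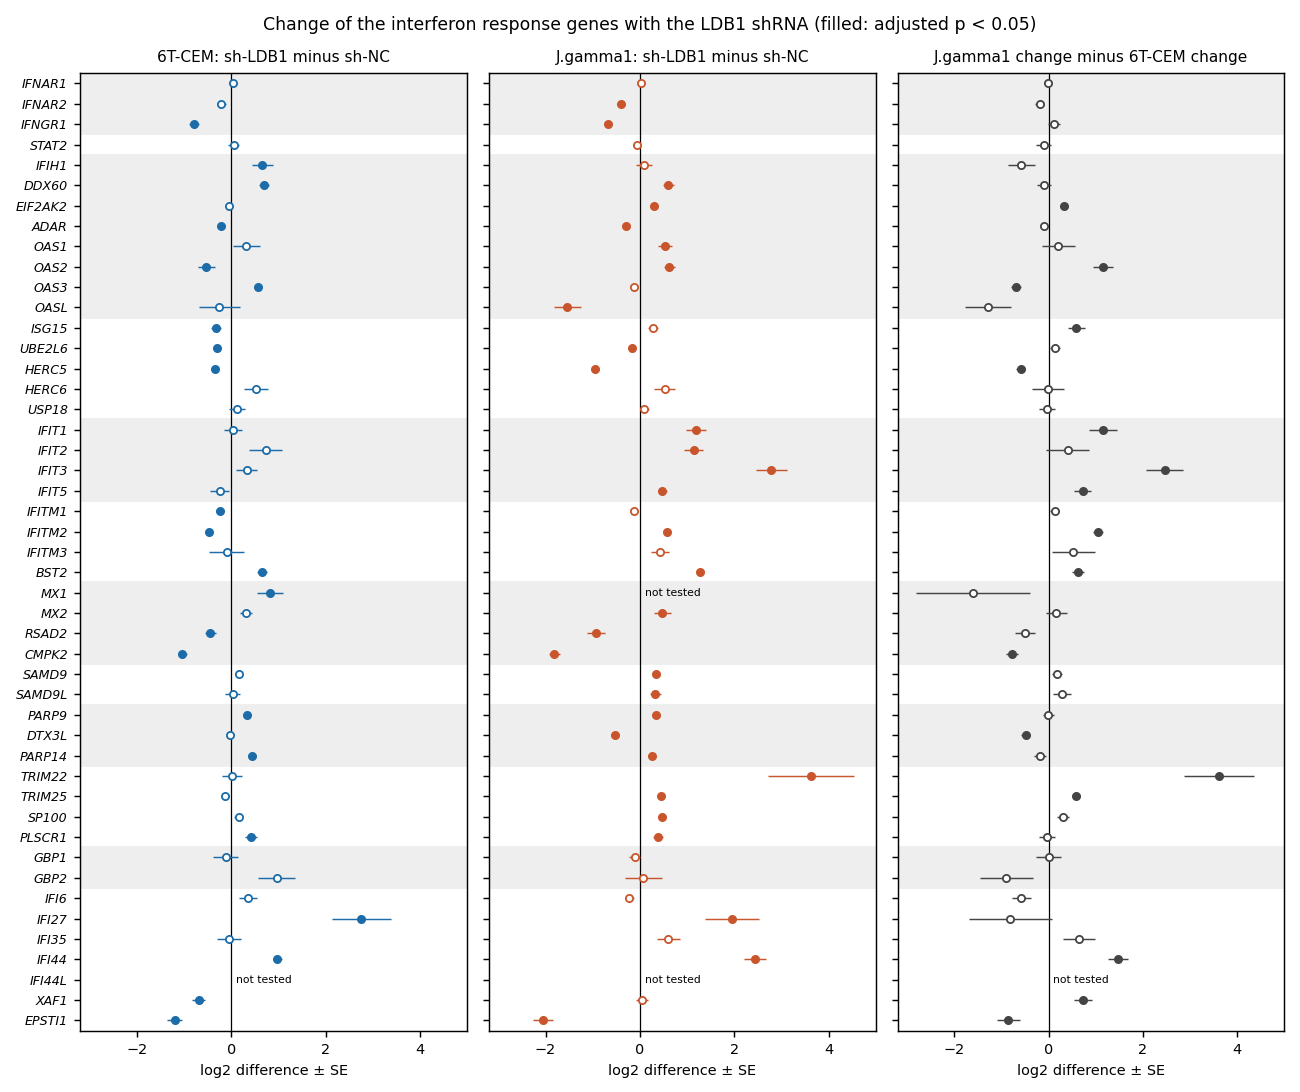
Log2 difference between sh-LDB1 and sh-NC with its SE for every tested member in 6T-CEM (left) and J.gamma1 (middle), and the J.gamma1 difference minus the 6T-CEM difference (right), with filled points at an adjusted p under 0.05. More members lie to the right of 0 in J.gamma1 (21 called higher, 10 lower) than in 6T-CEM (10 higher, 12 lower), and IFIT3 and TRIM22 lie far to the right in J.gamma1 and close to 0 in 6T-CEM.

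Among the member receptor chains and STAT2, 0 of the 4 rose in either line. IFNGR1, the ligand-binding chain of the interferon gamma receptor, was at 35.4 and 33.9 CPM in 6T-CEM controls and at 21.8 and 17.9 CPM with sh-LDB1, and at 47.9 and 50.3 CPM in J.gamma1 controls and at 30.6 and 30.4 CPM with sh-LDB1. Both knockdown libraries were below both controls in each line, and the log2 differences were −0.80 ± 0.11 for 6T-CEM and −0.68 ± 0.07 for J.gamma1 (edgeR adjusted p = 4.88e-05 and 2.23e-05). IFNAR2, the chain of the type I receptor that binds interferon most tightly, was at 32.4 and 33.4 CPM and then 28.4 and 28.3 CPM in 6T-CEM, and at 105 and 101 CPM and then 80.6 and 75.0 CPM in J.gamma1. It fell in J.gamma1 (−0.40 ± 0.06, adjusted p = 0.000205), while its difference in 6T-CEM, −0.21 ± 0.09, missed the threshold (adjusted p = 0.0887) although the libraries did not overlap, and the difference between the lines was not called (−0.19 ± 0.09, adjusted p = 0.16). IFNAR1, the other chain of that receptor, was at 78.3 and 82.9 CPM and then 86.0 and 79.6 CPM in 6T-CEM, and at 128 and 121 CPM and then 126 and 126 CPM in J.gamma1. STAT2, the transducer used by type I and type III interferons, was at 23.5 and 18.8 CPM and then 22.4 and 21.1 CPM in 6T-CEM, and at 35.9 and 37.4 CPM and then 33.9 and 36.2 CPM in J.gamma1. The groups overlapped for IFNAR1 and STAT2 in both lines. Of the effectors, 10 of 42 tested rose and 11 fell in 6T-CEM (23.8% and 26.2%, with 15.1% and 16.2% of all genes), and 21 of 41 rose and 8 fell in J.gamma1 (51.2% and 19.5%, with 25.0% and 26.5% of all genes). Their median log2 differences were 0.03 and 0.33. Receptors and STAT2 had medians of −0.08 for 6T-CEM and −0.23 for J.gamma1, over 4 genes and without a test against the effectors.

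The sensors and enzymes of double-stranded RNA were split in both lines. In 6T-CEM 3 of 8 rose (IFIH1, DDX60 and OAS3) and 2 fell (ADAR and OAS2), and in J.gamma1 4 rose (DDX60, EIF2AK2, OAS1 and OAS2) and 2 fell (ADAR and OASL). DDX60, a helicase that promotes sensing by RIG-I-like receptors, rose by 0.69 ± 0.10 in 6T-CEM and 0.60 ± 0.11 in J.gamma1 on the log2 scale. ADAR, which edits adenosine to inosine in double-stranded RNA, was at 423 and 459 CPM in 6T-CEM controls and 381 and 379 CPM with sh-LDB1, and at 502 and 513 CPM in J.gamma1 controls and 422 and 398 CPM with sh-LDB1. Its fall was small in both lines, −0.21 ± 0.05 and −0.30 ± 0.05, and the libraries did not overlap. OASL, an OAS-like protein without synthetase activity, was at 0.846 and 1.22 CPM and then 0.789 and 0.944 CPM in 6T-CEM, with overlapping groups. In J.gamma1 it was at 3.02 and 4.31 CPM in the controls and 1.29 and 1.22 CPM with sh-LDB1, a fall of −1.54 ± 0.29 (adjusted p = 0.00106). The difference between the lines missed the threshold (−1.29 ± 0.48, adjusted p = 0.0736).

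OAS1, OAS3 and OAS2 encode synthetases of the 2′-5′ oligoadenylates that activate RNase L, and they lie side by side on chromosome 12 (OAS1 from 112905856 on GRCh38, OAS2 to 113011723). OAS3 and OAS2, with 1934 bases between them, were called in opposite directions in 6T-CEM. OAS2 was at 7.27 and 8.49 CPM and then 5.49 and 5.42 CPM in 6T-CEM, and at 17.3 and 13.8 CPM and then 24.6 and 23.1 CPM in J.gamma1. Its log2 difference was −0.53 ± 0.19 in 6T-CEM (adjusted p = 0.0423) and 0.62 ± 0.12 in J.gamma1 (adjusted p = 0.00137), and the change differed between the lines by 1.15 ± 0.21 (adjusted p = 0.0018). The fall in 6T-CEM lost its call without any 1 of the 4 libraries and with DESeq2, whereas the difference between the lines kept it in every alternative. OAS3 rose in 6T-CEM (0.56 ± 0.08, adjusted p = 9.41e-05) and was −0.13 ± 0.07 in J.gamma1 (adjusted p = 0.161), a difference of −0.69 ± 0.11 between the lines (adjusted p = 0.000669).

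Of ISG15 and the proteins that attach or remove it, 3 of the 5 fell in 6T-CEM and 2 fell in J.gamma1, and 0 were called higher. Across all genes tested, 16.2% fell in 6T-CEM and 26.5% in J.gamma1. ISG15 was at 39.3 and 33.2 CPM and then 26.8 and 31.2 CPM in 6T-CEM, and at 21.8 and 26.9 CPM and then 28.0 and 30.7 CPM in J.gamma1. It fell in 6T-CEM (−0.32 ± 0.11, adjusted p = 0.037), was 0.28 ± 0.11 in J.gamma1 (adjusted p = 0.0521), and the change differed between the lines by 0.59 ± 0.17 (adjusted p = 0.0278). The 6T-CEM call was lost in 7 alternatives, DESeq2 and leaving out sh-NC replicate 1 or sh-LDB1 replicate 1 among them, and the call of the difference was lost without replicate 1 of either 6T-CEM group, J.gamma1 sh-NC replicate 1 or J.gamma1 sh-LDB1 replicate 2. HERC5, the main ligase that attaches ISG15 to newly made proteins, fell in both lines, by 0.35 on the log2 scale in 6T-CEM and by 0.94 in J.gamma1. That fall was larger in J.gamma1 (difference −0.59 ± 0.10, adjusted p = 0.00121). UBE2L6, the conjugating enzyme for ISG15, was at 84.3 and 89.1 CPM and then 64.2 and 75.2 CPM in 6T-CEM, and at 82.4 and 86.3 CPM and then 73.2 and 75.9 CPM in J.gamma1. Its log2 differences of −0.31 ± 0.08 and −0.17 ± 0.06 were called in both lines, the first not without sh-NC replicate 2 or sh-LDB1 replicate 1, and the second neither with DESeq2 nor without sh-NC replicate 2 or either sh-LDB1 replicate. USP18, the protease that removes ISG15, and HERC6 were not called in either line, although both sh-LDB1 libraries lay above both controls for each, with differences for HERC6 of 0.53 ± 0.25 and 0.52 ± 0.23.

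The IFIT genes, whose products bind viral RNA and restrain its translation, were called in 1 line only. All 4 rose in J.gamma1 and 0 of the 4 were called in 6T-CEM, and the difference between the lines was called for 3 of them. Across all genes tested, 25.0% rose in J.gamma1, and 12.0% were called with a higher change there than in 6T-CEM. IFIT3 (ENSG00000119917) was at 3 and 3.08 CPM and then 3.74 and 3.85 CPM in 6T-CEM, and at 0.693 and 0.444 CPM and then 3.54 and 4.31 CPM in J.gamma1. The J.gamma1 controls were the lowest group, with 36 counts over both libraries, and the other 3 groups lay between 3 and 4.31 CPM. The log2 difference in J.gamma1 was 2.78 ± 0.33 (adjusted p = 4.08e-05), and the ratio of counts was 6.92 with an exact 95% interval of 4.85 to 10.1, which covers counting error only. The change differed between the lines by 2.46 ± 0.39 (adjusted p = 0.000796).

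IFIT1 was at 6.39 and 7.60 CPM and then 7.71 and 6.64 CPM in 6T-CEM, where the groups overlapped, and at 3.21 and 4.31 CPM and then 7.53 and 9.57 CPM in J.gamma1, where they did not. Its rise in J.gamma1 was 1.19 ± 0.21 (adjusted p = 0.000712) and differed from that in 6T-CEM by 1.15 ± 0.30 (adjusted p = 0.014), a call that was lost without 6T-CEM sh-NC replicate 2, J.gamma1 sh-NC replicate 1 or J.gamma1 sh-LDB1 replicate 2, with adjusted p of 0.0549, 0.0615 and 0.0692. IFIT2 was at 3.69 and 1.60 CPM and then 4.56 and 4.19 CPM in 6T-CEM, and at 3.34 and 2.76 CPM and then 6.11 and 7.26 CPM in J.gamma1. The difference between the lines was not called for IFIT2. The log2 differences were 0.73 ± 0.35 (adjusted p = 0.151) and 1.14 ± 0.21 (adjusted p = 0.000913), with a difference of 0.40 ± 0.45 (adjusted p = 0.593). IFIT5 rose by 0.48 ± 0.09 in J.gamma1 (adjusted p = 0.00124) and was −0.24 ± 0.20 in 6T-CEM, with a difference of 0.72 ± 0.19 (adjusted p = 0.0155) that lost its call without 6T-CEM sh-NC replicate 1, J.gamma1 sh-NC replicate 2 or J.gamma1 sh-LDB1 replicate 1. IFIT2 and IFIT3 share 65 and 94 exon bases with LIPA on the other strand, and the strand setting of the counting is not stated. LIPA was at 2248 counts in J.gamma1 controls and 2143.5 with sh-LDB1, group means over 2 libraries.

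Of the membrane proteins that block viral entry or release, BST2 rose in both lines. BST2, or tetherin, which holds budding virus at the cell surface, was at 18 and 17.5 CPM and then 26.4 and 29.5 CPM in 6T-CEM, and at 16.7 and 16.6 CPM and then 38.6 and 41.8 CPM in J.gamma1. The control levels of the lines differed by −0.09 ± 0.09 (adjusted p = 0.41), and the rise was larger in J.gamma1, 1.28 ± 0.08 against 0.66 ± 0.11 (difference 0.62 ± 0.13, adjusted p = 0.00463). IFITM2, which restricts fusion of virus with endosomal membranes, was at 40.4 and 38.5 CPM and then 27.5 and 29.3 CPM in 6T-CEM, and at 31.0 and 34.3 CPM and then 47.1 and 50 CPM in J.gamma1. It fell in the first line (−0.47 ± 0.09, adjusted p = 0.000947) and rose in the second (0.58 ± 0.08, adjusted p = 0.000122), with a difference of 1.04 ± 0.11 (adjusted p = 5.45e-05). IFITM1, which acts at the plasma membrane, was at 87.5 and 81.9 CPM and then 70.1 and 71.9 CPM in 6T-CEM, and at 49.7 and 50.2 CPM and then 46.5 and 44.9 CPM in J.gamma1. Its fall of 0.25 on the log2 scale was called in 6T-CEM (adjusted p = 0.0115, lost without sh-NC replicate 1 or sh-LDB1 replicate 1) and its difference of −0.12 ± 0.07 in J.gamma1 was not. IFITM2 and IFITM3 are near-identical copies between which reads could be split in the counting, so both values are uncertain, and IFITM3 was not called in either line.

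RSAD2 and CMPK2 lie head to head on chromosome 2 and fell together in both lines. CMPK2, a mitochondrial nucleotide kinase, was at 58.0 and 53.6 CPM and then 28.8 and 25.4 CPM in 6T-CEM, and at 24.9 and 23.6 CPM and then 6.78 and 6.96 CPM in J.gamma1. The falls were −1.04 ± 0.09 and −1.81 ± 0.12 (adjusted p = 6.56e-07 and 4.55e-07), and that in J.gamma1 was the larger (difference −0.78 ± 0.13, adjusted p = 0.00135). RSAD2, or viperin, which turns the nucleotide CTP into a chain terminator, was at 21.8 and 19.4 CPM and then 15.5 and 14.7 CPM in 6T-CEM, and at 7.78 and 6.75 CPM and then 4.14 and 3.43 CPM in J.gamma1. It fell by 0.44 on the log2 scale in 6T-CEM and by 0.93 in J.gamma1, the 6T-CEM call being lost with DESeq2 and without sh-NC replicate 1 or sh-LDB1 replicate 2. The pair share 351 exon bases on opposite strands, 6.203% of RSAD2 exons and 7.995% of CMPK2 exons. MX2, a GTPase that blocks the nuclear entry of retroviruses, was 0.31 ± 0.12 in 6T-CEM (adjusted p = 0.058) and 0.47 ± 0.18 in J.gamma1 (adjusted p = 0.0446), the latter call lost with DESeq2 and without sh-NC replicate 2 or either sh-LDB1 replicate. MX1 rose in 6T-CEM (0.82 ± 0.27, adjusted p = 0.0324), a call lost with DESeq2 and without sh-NC replicate 2 or either sh-LDB1 replicate, and J.gamma1 libraries held 2, 2, 0 and 2 counts of it, too few to test.

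SAMD9 and SAMD9L, neighbouring antiviral genes on chromosome 7, rose in J.gamma1 by 0.34 ± 0.08 and 0.32 ± 0.12 (adjusted p = 0.00319 and 0.0393) and were not called in 6T-CEM. The call of SAMD9L was lost with DESeq2 and without either sh-NC replicate or sh-LDB1 replicate 1. The mono-ADP-ribosyltransferases PARP9 and PARP14 rose in both lines, PARP9 by 0.34 ± 0.08 in 6T-CEM and 0.33 ± 0.08 in J.gamma1. DTX3L, the ubiquitin ligase that forms a complex with PARP9, was −0.04 ± 0.08 in 6T-CEM and fell by 0.52 on the log2 scale in J.gamma1 (adjusted p = 0.000139), with a difference between the lines of −0.49 ± 0.09 (adjusted p = 0.00275). The partners overlap at their 5′ ends, where they share 139 exon bases on opposite strands, and the window printed for PARP9 lies in the promoters of both.

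TRIM22, TRIM25, SP100 and PLSCR1, a group of nuclear and cytoplasmic restriction factors, all rose in J.gamma1, and PLSCR1 also rose in 6T-CEM. Across all genes tested, 25.0% rose in J.gamma1 and 15.1% in 6T-CEM. TRIM22, an antiviral ubiquitin ligase, was at 3.96 and 4.45 CPM and then 4.35 and 4.09 CPM in 6T-CEM, with overlapping groups. In J.gamma1 it had 3 and 0 counts in the controls and 19 and 17 counts with sh-LDB1, a ratio of 13.2 with an exact 95% counting interval of 4.18 to 67.1. Both knockdown libraries were above both controls, edgeR gave an adjusted p of 0.00655 for the rise, and it rose to 0.0634 without sh-LDB1 replicate 1. The difference between the lines had an adjusted p of 0.00386. TRIM25, which attaches ubiquitin to RIG-I, rose by 0.45 ± 0.06 in J.gamma1 and was −0.13 ± 0.06 in 6T-CEM, a difference of 0.58 ± 0.07 (adjusted p = 0.000162).

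The remaining interferon-induced genes included the members with the largest rises in 6T-CEM. IFI27, a mitochondrial protein used as a sensitive marker of interferon exposure, had 3 and 4 counts in 6T-CEM controls and 24 and 29 with sh-LDB1, and 12 and 5 counts in J.gamma1 controls and 36 and 24 with sh-LDB1. It was near the limit of detection in all 4 groups, with ratios of 6.94 in 6T-CEM (exact 95% counting interval 3.14 to 18.1) and 3.89 in J.gamma1 (2.24 to 7.11). The edgeR log2 differences of 2.76 ± 0.63 and 1.96 ± 0.57 were called (adjusted p = 0.00363 and 0.0144). The call was lost in 6T-CEM without sh-LDB1 replicate 2, where DESeq2 gave no adjusted p, and in J.gamma1 with DESeq2 and without sh-NC replicate 2 or sh-LDB1 replicate 1. IFI44, a cytoplasmic interferon-induced protein, was at 20.2 and 17.2 CPM and then 36.0 and 37.3 CPM in 6T-CEM, and at 1.17 and 1.17 CPM and then 6.00 and 6.75 CPM in J.gamma1. It rose by 0.98 ± 0.10 and 2.45 ± 0.23 (adjusted p = 5.17e-06 and 8.87e-06), by more in J.gamma1 (difference 1.47 ± 0.20, adjusted p = 0.000294), and even then stayed below the 6T-CEM controls. Its neighbour IFI44L had counts in a single library of each line, sh-LDB1 replicate 2 in both, with 4 and 10 counts, and was not tested.

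EPSTI1, an interferon-responsive gene first named for its induction by stromal contact, fell the most in both lines. It was at 12.2 and 11.9 CPM and then 5.55 and 4.89 CPM in 6T-CEM, and at 7.49 and 7.48 CPM and then 1.68 and 1.90 CPM in J.gamma1. The log2 differences were −1.20 ± 0.17 and −2.06 ± 0.21 (adjusted p = 7.13e-05 and 1.29e-05). The difference between the lines, −0.85 ± 0.25 (adjusted p = 0.0264), lost its call with DESeq2 (adjusted p = 0.0634) and without 6 of the 8 libraries, namely each one other than the replicate 2 libraries of sh-LDB1. XAF1, a pro-apoptotic antagonist of XIAP, fell in 6T-CEM (−0.69 ± 0.13, adjusted p = 0.000965) and was 0.04 ± 0.12 in J.gamma1, with a difference of 0.73 ± 0.19 (adjusted p = 0.0128) that was lost without J.gamma1 sh-NC replicate 1. IFI6, an endoplasmic reticulum protein that inhibits apoptosis, was at 5.96 and 7.72 CPM and then 8.26 and 9.16 CPM in 6T-CEM, and at 29.3 and 29.8 CPM and then 22.7 and 27.8 CPM in J.gamma1, and it was not called in either line (adjusted p = 0.17 and 0.0908). The guanylate-binding proteins GBP1 and GBP2 and the transcriptional regulator IFI35 were also not called in either line.

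In the test of the difference between the lines, 17 of 46 members were called. The change was higher in J.gamma1 for 12 of them (26.1%) and lower for 5 (10.9%), where 12.0% of all 18552 genes tested were higher and 12.4% lower. The 6 past a log2 difference of 1 were OAS2, IFIT1, IFIT3, IFITM2, TRIM22 and IFI44, all higher in J.gamma1. The 5 with the lower change in J.gamma1 were OAS3, HERC5, CMPK2, DTX3L and EPSTI1. None of the receptors nor STAT2 was called.

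**Figure D3:**
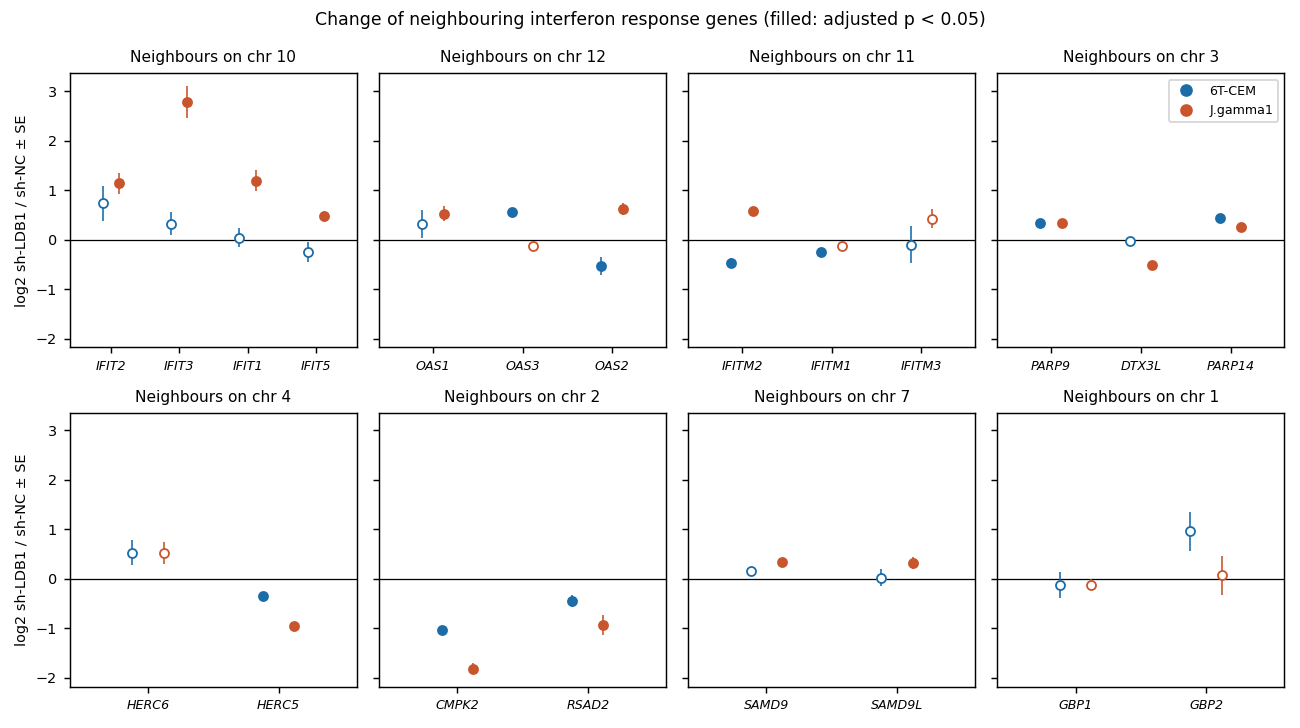
Log2 difference between sh-LDB1 and sh-NC with its SE for members that lie next to each other, 1 panel per chromosome with genes in chromosomal order and not to scale, blue for 6T-CEM and orange for J.gamma1, filled at an adjusted p under 0.05. The 4 IFIT genes lie above 0 together in J.gamma1 and CMPK2 and RSAD2 lie below 0 in both lines, whereas OAS3 against OAS2, HERC6 against HERC5 and PARP9 against DTX3L lie on opposite sides of 0 in at least 1 line. Of these, HERC6 was not called in either line.

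The control levels of the lines were compared next. For these levels a log2 difference beyond 1 was required as well, and 9 of 46 members were higher in J.gamma1 and 8 lower, where 19.1% of all genes tested were higher and 13.3% lower, so that the share of members higher was near that of all genes. Levels between genes are compared per kilobase of the canonical transcript. By that scale the most abundant members in 6T-CEM controls were IFITM1 at 127 ± 5.91 CPM per kb (SD, n = 2), UBE2L6 at 71.1 ± 2.74, ADAR at 66.8 ± 3.85, ISG15 at 56.9 ± 6.71 and IFITM2 at 39.2 ± 1.36. UBE2L6 and ADAR lay within their spread of each other. In J.gamma1 controls the order was ADAR at 76.8 ± 1.16 CPM per kb, IFITM1 at 74.7 ± 0.502, UBE2L6 at 69.2 ± 2.25, ISG15 at 38.2 ± 5.61 and IFI6 at 36.4 ± 0.438. The range of ISG15 took in that of IFI6. The median member was at 5.38 CPM per kb in 6T-CEM controls and 5.3 in J.gamma1 controls, and 7 and 9 members were under 1 CPM per kb.

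The members higher in J.gamma1 controls were IFNAR2, IFIH1, OAS1, OASL, USP18, IFIT5, IFITM3, GBP1 and IFI6, the last at 4.32-fold. The 8 lower were EIF2AK2, IFIT3, MX1, MX2, RSAD2, CMPK2, TRIM22 and IFI44, so that the whole group of MX1, MX2, RSAD2 and CMPK2 was lower. IFI44 was 15.9-fold lower in J.gamma1 (log2 difference −3.99 ± 0.16, adjusted p = 5.36e-10). MX1 had 166 counts in the 6T-CEM controls against 4 in those of J.gamma1, a ratio of 49.6 with an exact 95% counting interval of 19.0 to 184. TRIM22 had 223 counts against 3, a ratio of 88.9 with an interval of 30 to 434. The lines were deposited in separate tables, so line and table cannot be told apart in this comparison. The comparison of controls also shares the sh-NC libraries with both knockdown comparisons, so a low control level and a rise with sh-LDB1 are not independent measures. Side by side, IFIT3 and IFI44 had control differences of −2.41 and −3.99 on the log2 scale and knockdown differences in J.gamma1 of 2.78 and 2.45, while CMPK2 had −1.20 and −1.81. These are bulk libraries, so fewer cells that express a gene and less RNA per cell cannot be told apart.

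**Figure D4:**
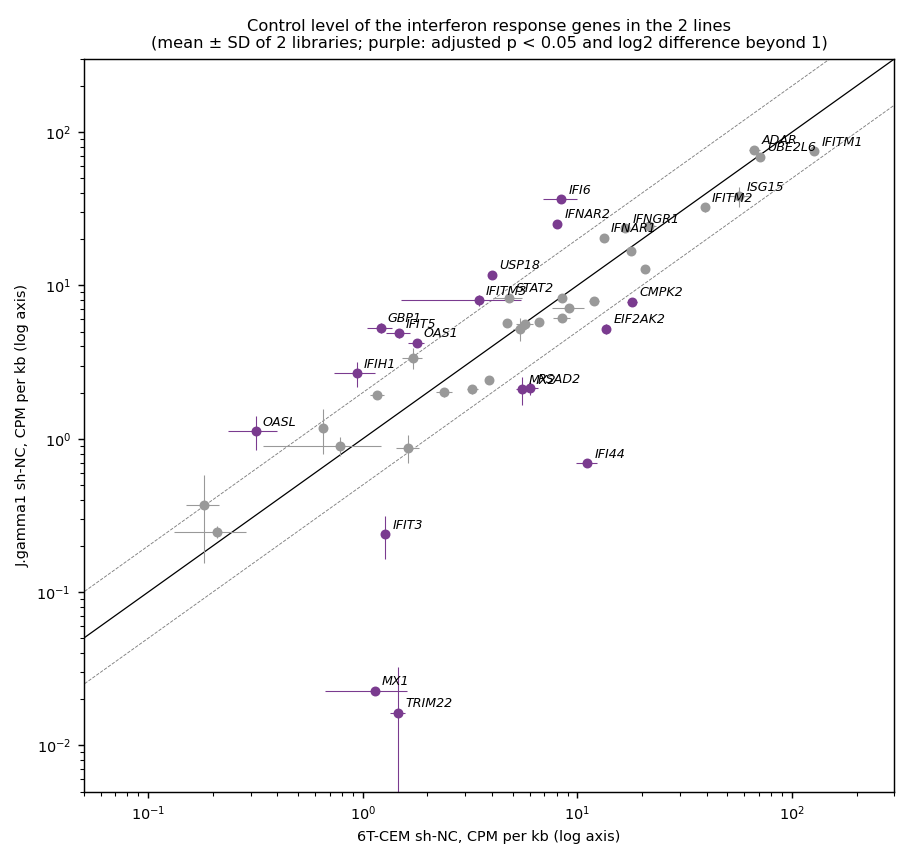
Mean control level of 46 members in 6T-CEM (x axis) and J.gamma1 (y axis), in CPM per kilobase on log axes, with the SD of 2 libraries as bars, a solid line at equality and dashed lines at a log2 difference of 1. IFI44L, at 0 in all 4 control libraries, is not drawn, and purple points mark the 9 members higher and 8 lower in J.gamma1, with MX1, TRIM22, IFI44 and IFIT3 furthest below the line.

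Other genes of the pathway were read from a list of 62 that holds no member. Of 7 interferon genes, IFNB1 and IFNG among them, 0 had enough counts to be tested in either line. In 6T-CEM 12 of the 51 tested genes of the list rose and 7 fell, and in J.gamma1 26 of 52 rose and 14 fell. These are 23.5% and 13.7% in 6T-CEM, where 15.1% and 16.2% of all genes rose and fell, and 50% and 26.9% in J.gamma1, where 25.0% and 26.5% did, so that the falling shares were near those of all genes. STAT3, the main transducer of interleukin-6 signals, fell by 0.58 on the log2 scale in 6T-CEM and by 0.80 in J.gamma1 (adjusted p = 3.04e-06 and 2.88e-07). IRF9, a DNA-binding partner of STAT2, was 0.40 ± 0.65 and 0.01 ± 0.27, with means of 2 and 4.04 CPM in the controls. IRF7, the factor that amplifies type I interferon transcription, rose by 0.99 ± 0.32 and 0.80 ± 0.29 from control means of 1.15 and 1.8 CPM (adjusted p = 0.0288 and 0.0416). The kinases JAK1 and TYK2 were not called in either line. Of 3 further receptor chains, IFNLR1 rose in J.gamma1 from a mean of 1.56 to 3.33 CPM (1.09 ± 0.28, edgeR adjusted p = 0.00759). IFNGR2 and IL10RB fell there (−0.55 ± 0.10 and −0.48 ± 0.08, edgeR adjusted p = 0.00107 and 0.000728). In 6T-CEM IFNGR2 and IL10RB were not called and IFNLR1 was not tested. SOCS1, which inhibits JAK kinases, rose from a mean of 1.36 to 9.18 CPM in 6T-CEM (2.75 ± 0.22, adjusted p = 2.95e-07) and from 0.584 to 1.35 CPM in J.gamma1 (1.21 ± 0.41, adjusted p = 0.028). Among sensors and adaptors, TLR9 and STING1 rose in both lines, STING1 by 0.41 ± 0.08 in 6T-CEM and 1.06 ± 0.08 in J.gamma1. IRF2, which competes with activating factors at the response element, rose in 6T-CEM (0.36 ± 0.09) and fell in J.gamma1 (−0.40 ± 0.07), and IRF1 fell in J.gamma1 alone (−0.50 ± 0.07, difference between the lines −0.44 ± 0.10, adjusted p = 0.0088).

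The calls were then set beside the promoter letters. Of the 25 members with the interferon-stimulated response element, 10 rose and 5 fell in 6T-CEM, with 9 not called and 1 not tested, and 12 rose and 4 fell in J.gamma1, with 7 not called and 2 not tested. Of the 13 members with a promoter entry and no match, 0 rose and 5 fell in 6T-CEM, and 4 rose and 4 fell in J.gamma1. The median log2 differences were 0.24 for 6T-CEM and 0.29 for J.gamma1 with the element, and −0.05 and 0.04 without it. Every member that rose in 6T-CEM thus held the element, and so did ISG15, HERC5, IFITM1, RSAD2 and EPSTI1, which fell there. With DESeq2, IFIH1, MX1 and PLSCR1 lost their calls in 6T-CEM and IFI27 had no adjusted p. The members without a match include IFNAR1, IFNGR1 and STAT2, so the split by element partly follows that of effectors and receptors. Shares of calls among all genes with or without the element were not computed, and the shares of members are given without a test.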

How the data were processed

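RNA was sequenced from 6T-CEM and J.gamma1 cells with sh-NC or sh-LDB1, 2 libraries per group and 8 in all. Reads were paired, of 150 bp. The authors used HISAT2 2.2.0 for alignment, with hg38 as the genome, and StringTie to quantify genes, and they deposited whole-number counts per gene in 1 table per line, without normalization or pooling. The annotation release, the strand setting and the treatment of reads that match several genes are not given in the sources used here, so values of overlapping genes and close copies are uncertain. Symbols, exons, lengths and overlaps came from GENCODE 44, and promoters from RefSeq.

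Each line was fitted by itself with edgeR 4.0.16 in R 4.3.3 (quasi-likelihood test, robust fitting, TMM factors, filterByExpr, Benjamini-Hochberg adjustment over all genes tested). The difference between the lines (the J.gamma1 change minus the 6T-CEM change) and the control levels came from a fit to all 8 libraries. Standard errors were derived from the log2 difference and the F statistic. Intervals for ratios of low counts are exact conditional binomial intervals on counts pooled over the libraries of a group, at 95% confidence, and both these and limits from depth cover counting error only. A ratio is given for groups of at least 3 counts. The steps were tested on simulated counts. Figures were drawn with matplotlib 3.10.9 in Python 3.11.15.

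The 47 members, the pathway list, the markers and the tests were chosen with earlier results of these data known. Given with the value in every library were members called past a log2 difference of 1 in either line or between the lines, the 5 with the highest control level per kilobase in each line, and the receptors with STAT2. The others were given by their call or where they stand beside such a member. Alternatives were RLE and upper-quartile factors, other filters on low counts, DESeq2 1.42.0, a contrast from the fit to all 8 libraries, the replicate number as a block, a call that also needs a log2 difference beyond 1, and leaving out each library. Some genes of the pathway and marker lists are not reported here by name.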

Additional observations from a re-analysis of the deposited data

Results flagged for a closer look

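The change with sh-LDB1 differed between the lines, by edgeR's test of the difference itself at an adjusted p under 0.05, for 17 members. Values are log2 differences, J.gamma1 minus 6T-CEM. The change was higher in J.gamma1 for TRIM22 (3.61), IFIT3 (2.46), IFI44 (1.47), IFIT1 (1.15), OAS2 (1.15), IFITM2 (1.04), XAF1 (0.73), IFIT5 (0.72), BST2 (0.62), ISG15 (0.59), TRIM25 (0.58) and EIF2AK2 (0.34). It was lower in J.gamma1 for EPSTI1 (−0.85), CMPK2 (−0.78), OAS3 (−0.69), HERC5 (−0.59) and DTX3L (−0.49). The fitted value of TRIM22 rests on 3 counts in the J.gamma1 controls and depends on the prior count. LDB1 itself fell by less in J.gamma1 (log2 difference −0.89) than in 6T-CEM (−1.60), and the part of this in the differences was not tested. Groups of 2 libraries were too small to mark a single library as standing apart.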

How the results depend on the processing

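No direction of a called member turned under any alternative. Requiring a log2 difference beyond 1 as well left 3 of 22 called members in 6T-CEM (1 of 10 higher, 2 of 12 lower), 10 of 31 in J.gamma1 (7 of 21 higher, 3 of 10 lower) and 6 of 17 for the difference between the lines (6 of 12 higher, 0 of 5 lower). DESeq2 called 6 members higher and 9 lower in 6T-CEM, where it gave IFI27 no adjusted p, and 14 higher and 9 lower in J.gamma1, where IFI27, MX2, OAS1, PARP14, PARP9, PLSCR1, SAMD9L and UBE2L6 lost their calls, and the cause was not tested. Leaving out 1 library, where the lone library left is assumed to vary like the other groups, gave 16 to 17 called members in 6T-CEM (6 to 10 higher, 7 to 10 lower), 25 to 29 in J.gamma1 (16 to 19 higher, 9 to 10 lower), 13 to 17 for the difference (9 to 12 higher, 4 to 6 lower) and 17 to 19 for the controls (8 to 10 higher, 8 to 9 lower). Under every other alternative of its comparison (all but the added limit on the log2 difference) a call was kept by 10 of 22 members in 6T-CEM, 21 of 31 in J.gamma1, 11 of 17 for the difference and 16 of 17 for the controls, in the last with IFITM3 lost without 6T-CEM sh-NC replicate 1. With the replicate number as a replicate block, 21 members were called in 6T-CEM (11 higher, 10 lower), 31 in J.gamma1, 18 for the difference and 19 for the controls. The replicate 2 minus replicate 1 difference over 13635 genes barely correlated between sh-NC and sh-LDB1 (−0.0338 in 6T-CEM and 0.00659 in J.gamma1). Between groups of different lines the correlations were −0.0177 to 0.0743. The mitochondrial share was higher in replicate 2 in every group. It went from 2.98% to 4.45% and 3.39% to 3.87% in 6T-CEM, and from 3.85% to 4.59% and 4.01% to 4.51% in J.gamma1 (sh-NC, then sh-LDB1). Whether same-numbered libraries shared a step was not tested. Calls of a further set of members, not detailed above, ended without 1 library: in 6T-CEM ADAR and PARP9 (sh-NC replicate 2), HERC5 (sh-NC replicate 1), IFIH1 (sh-NC replicate 1 or either sh-LDB1) and PLSCR1 (sh-NC replicate 2 or either sh-LDB1), and in J.gamma1 EIF2AK2 and PLSCR1 (sh-NC replicate 2), OAS1 (replicate 2 of either group) and PARP14 (replicate 1 of either group). The difference of EIF2AK2 ended without J.gamma1 sh-NC replicate 2 or sh-LDB1 replicate 1. Members under about 1 CPM per kb, such as IFI27, MX1 and TRIM22 in J.gamma1, are limited by depth, and IFI44L could not be tested.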
